A study of Mus musculus with 2 samples.

Results

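The genes described here carry guanylin signalling and the salt transport it controls in the gut: Guca2a, Guca2b, Gucy2c, Prkg2, Cftr, Slc9a3, Slc9a3r1, Slc26a3, Slc26a6 and Slc12a2. They were chosen by name, as the rows whose gene identifiers map to these symbols, which gave 10 of the 43346 Ensembl genes in the gene tables and 36 transcripts in the transcript tables. Each of the 10 reached a level of 1 TPM in each library, where TPM stands for transcripts in a total of 1e+06 and is a level per length. The data are 2 poly(A)-selected RNA-seq libraries of small intestine from adult C57BL/6J mice, an inbred strain, aged 8 weeks. The labels number them as biological replicates 1 and 2, give mixed-sex littermates as the source, and name no treatment, genotype or segment of the intestine. They describe pooled animals, give no number of animals for a library, and name the same donor entry for both libraries, with a separate tissue sample for each. With 1 group there is no contrast to test, so each library's own values are given, with a mean ± SD (n = 2) where useful, and the spread between libraries may be partly technical.

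Guanylin and uroguanylin are small peptides that epithelial cells release into the gut lumen. They bind guanylate cyclase C on the brush border, which makes cyclic GMP inside the cell. Cyclic GMP activates a membrane-bound protein kinase that promotes opening of the CFTR anion channel and restrains sodium-hydrogen exchange, so that chloride, bicarbonate and water leave the tissue and less sodium enters it. Heat-stable toxins of enterotoxigenic bacteria act on the same receptor and cause watery diarrhoea.

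The active part of each hormone lies at the carboxyl end of its precursor, and the ligand genes are shown here because their levels differed most between the libraries. Guca2a, the guanylin gene (ENSMUSG00000023247.2), lies on chromosome 4 from 119637704 to 119639471 on the plus strand of GRCm38, the assembly named mm10. Guca2b, the uroguanylin gene (ENSMUSG00000032978.10), lies on the minus strand of the same chromosome from 119656607 to 119658954. Their ends face each other across 17135 bases with no other annotated gene between them. The last 48 coding bases before the stop codon, read from GENCODE M21 transcripts, are printed 5′ to 3′ with cysteine codons in capitals. They lie in a single exon, at chr4:119639225-119639272 for Guca2a and chr4:119656795-119656842 for Guca2b.
Guca2a: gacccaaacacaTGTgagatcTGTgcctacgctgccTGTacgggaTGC
Guca2b: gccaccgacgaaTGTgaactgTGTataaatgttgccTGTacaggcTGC
Both stretches hold 4 cysteine codons among 16, at the same 4 places, which are codons 12, 9, 4 and 1 counted back from the end. Cysteines of these peptides are known to pair into disulfide bridges. Over the 48 bases 31 were identical (64.6%). Neither transcript matched a transcript of another gene in a BLAST search of GENCODE M21.

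Among the 10 genes, Guca2a differed most between the libraries. Guca2a had 46.9 TPM in replicate 1 (854 counts) and 1084 TPM in replicate 2 (16077 counts). Guca2b had 337 TPM in replicate 1 (6342 counts) and 1685 TPM in replicate 2 (25728 counts). Replicate 1 was thus the low library for both ligands, and the deposited credibility intervals did not overlap for either gene. Guca2a ranked 1588th of 43346 genes in replicate 1 and 126th in replicate 2, whereas Guca2b ranked 241st and 77th. Guca2b exceeded Guca2a in both libraries, by 7.20-fold in replicate 1 and 1.55-fold in replicate 2. On the log2 scale that excess was 1.74 ± 1.56 (SD, n = 2), so its size did not clearly exceed the spread between libraries although its sign was shared. Guanylin made up 12.2% of summed ligand TPM in replicate 1 and 39.2% in replicate 2. In rodents guanylin RNA is known to be most abundant towards the large intestine and uroguanylin RNA towards the proximal small intestine.

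Gucy2c encodes guanylate cyclase C, the receptor (ENSMUSG00000042638.10, chromosome 6, 136697284 to 136781765, minus strand). It had 21.4 TPM in replicate 1 (4018 counts) and 56.7 TPM in replicate 2 (8279 counts), or 39.0 ± 25.0 TPM (SD, n = 2). As with the ligands, replicate 1 was lower. The ligand RNAs together stood at 17.98 times the receptor RNA in replicate 1 and 48.9 times in replicate 2, on the TPM scale. These are ratios of RNA per length and do not measure secreted peptide. Prkg2, the cyclic GMP kinase type II that is anchored at the brush border (ENSMUSG00000029334.10, chromosome 5, 98929773 to 99037351, minus strand), had 2.96 TPM in replicate 1 (712 counts) and 6.74 TPM in replicate 2 (1256 counts). The receptor exceeded the kinase by a similar factor in each library, 7.22-fold in replicate 1 and 8.41-fold in replicate 2.

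**Figure D1:**
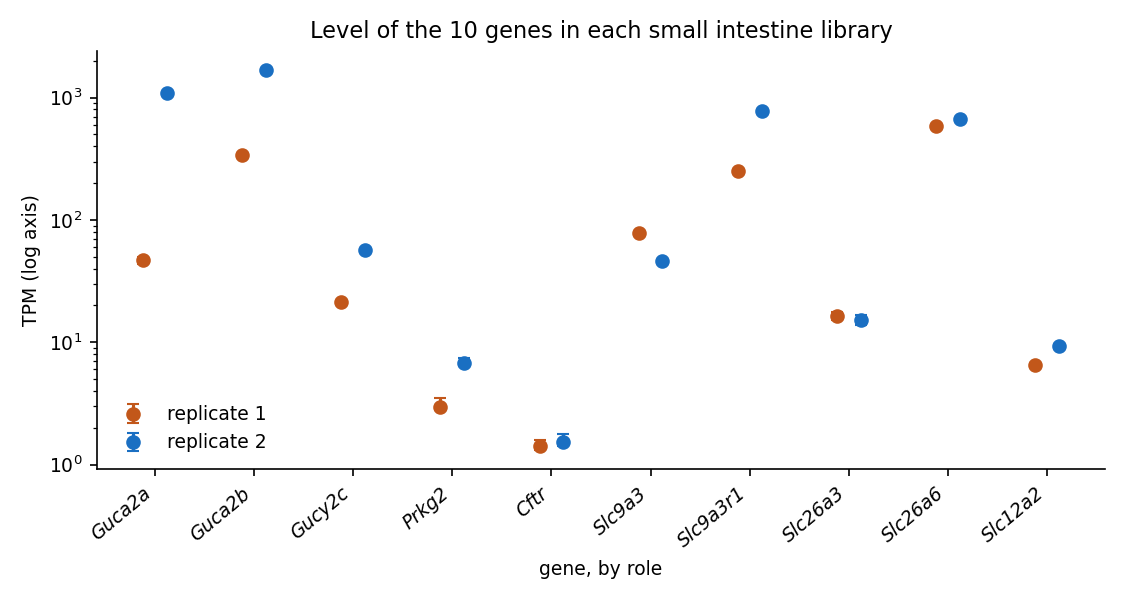
Level of each of the 10 genes in TPM on a log axis, in replicate 1 (orange, left) and replicate 2 (blue, right), with bars for the deposited credibility interval where it is wider than the point. The widest gap is that of Guca2a, at 46.9 and 1084 TPM, and Cftr is the lowest gene, at 1.41 and 1.54 TPM.

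The effectors at the cell surface covered a wide range. Cftr, the anion channel through which chloride and bicarbonate leave the cell (ENSMUSG00000041301.11, chromosome 6, 18170687 to 18322768, plus strand), had 1.41 TPM in replicate 1 (436 counts) and 1.54 TPM in replicate 2 (370 counts). It was the lowest of the 10 in both libraries, and its credibility intervals overlapped. Cftr is known to be strongest in crypt cells, and crypt stem cell markers were present in both libraries, with each of 6 detected and a sum of 161 TPM in replicate 1, against 222 TPM in replicate 2. In bulk tissue, fewer cells of a type and less RNA per cell cannot be told apart. Slc12a2, the sodium-potassium-chloride cotransporter that loads chloride from the blood side (ENSMUSG00000024597.10, chromosome 18, 57878678 to 57946821, plus strand), had 6.57 TPM in replicate 1 (2099 counts) and 9.33 TPM in replicate 2 (2316 counts). It stood 4.66-fold above Cftr in replicate 1 and 6.06-fold in replicate 2.

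Slc9a3, the main apical sodium-hydrogen exchanger NHE3 (ENSMUSG00000036123.6, chromosome 13, 74121457 to 74169442, plus strand), had 78.0 TPM in replicate 1 (8946 counts) and 46.1 TPM in replicate 2 (4121 counts). It was the only one of the 10 whose credibility intervals lay apart with replicate 1 above. Its single transcript in the tables (ENSMUST00000036208.6) has 2490 nt, of which 2487 precede the stop codon, so the model behind its value holds no untranslated region. GENCODE M21 also lists a longer transcript of the gene, of 5118 nt, with the same coding length. Slc9a3r1, the PDZ-domain scaffold NHERF1 that tethers NHE3 and CFTR to ezrin (ENSMUSG00000020733.3, chromosome 11, 115163341 to 115181181, plus strand), had 252 TPM in replicate 1 (21618 counts) and 777 TPM in replicate 2 (52260 counts). Scaffold RNA exceeded that of the exchanger 3.22-fold in replicate 1 and 16.9-fold in replicate 2, as the 2 genes differed between libraries in opposite directions.

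The apical chloride-bicarbonate exchangers were unequal. Slc26a6, also called PAT1 (ENSMUSG00000023259.12, chromosome 9, 108853283 to 108913049, plus strand), was listed at 589 TPM in replicate 1 (26191 counts) and 668 TPM in replicate 2 (19619 counts). Slc26a3, also called DRA, the exchanger whose loss causes congenital chloride diarrhoea (ENSMUSG00000001225.8, chromosome 12, 31390871 to 31473917, plus strand), was at 16.5 TPM in replicate 1 (1262 counts) and 15.2 TPM in replicate 2 (1198 counts). The credibility intervals of Slc26a3 overlapped. By these gene values Slc26a6 was 35.7-fold above Slc26a3 in replicate 1 and 43.9-fold in replicate 2. Both gene values rest on partial transcripts, described next. In order of mean TPM the genes ran Guca2b, Slc26a6, Guca2a, Slc9a3r1, Slc9a3, Gucy2c, Slc26a3, Slc12a2, Prkg2 and Cftr. Each neighbouring pair among the first 4 changed order between the libraries, as did Slc9a3 and Gucy2c, although Guca2b was above both Guca2a and Slc9a3r1 in each library. Slc12a2 was above Prkg2 within each library, while their ranges over the 2 libraries overlapped. Slc9a3r1 lay clear of Slc9a3, Gucy2c of Slc26a3, Slc26a3 of Slc12a2, and Prkg2 of Cftr.

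Most of the Slc26a6 gene value came from a short annotated piece of the locus. This downstream piece, a transcript of 418 nt with 2 exons (ENSMUST00000191404.1, chr9:108912410-108913049), took 61.9% of the gene's TPM in replicate 1 and 68.4% in replicate 2, but 12.9% and 18.4% of its counts. Its level was 364 TPM in replicate 1 (3380 counts) and 457 TPM in replicate 2 (3607 counts), computed over an effective length of 182 nt and 200.5 nt. The annotation flags its start and its coding start as not found, and tags the locus as fragmented. Between it and the last exon of the other transporter transcripts lie 50266 bases. Its first exon, which is coding, is printed here because the transcript it belongs to held most of the gene's TPM (GRCm38, plus strand, chr9:108912410-108912546).
Slc26a6 downstream piece: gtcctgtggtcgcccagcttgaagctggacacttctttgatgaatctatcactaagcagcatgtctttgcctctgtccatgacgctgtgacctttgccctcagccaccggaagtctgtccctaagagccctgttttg
All 137 bases of this exon also lie in ENSMUST00000098376.5, the only other transcript that reaches them, which joins both regions and received 14.9 counts in replicate 1 and 6.82 in replicate 2. A BLAST search matched the downstream piece to no other gene. The leading transcripts of the upstream region, ENSMUST00000188557.2 (146 and 161 TPM in replicates 1 and 2) and ENSMUST00000193291.1 (67.3 and 35.9 TPM), are flagged as having no coding end found. The 9 other transcripts summed to 224 TPM in replicate 1, against 211 TPM in replicate 2, or 218 ± 9.35 TPM (SD, n = 2). With that value Slc26a6 stood below Slc9a3r1 in each library. Whether the downstream piece and the upstream transcripts are parts of the same RNA was not tested.

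**Figure D2:**
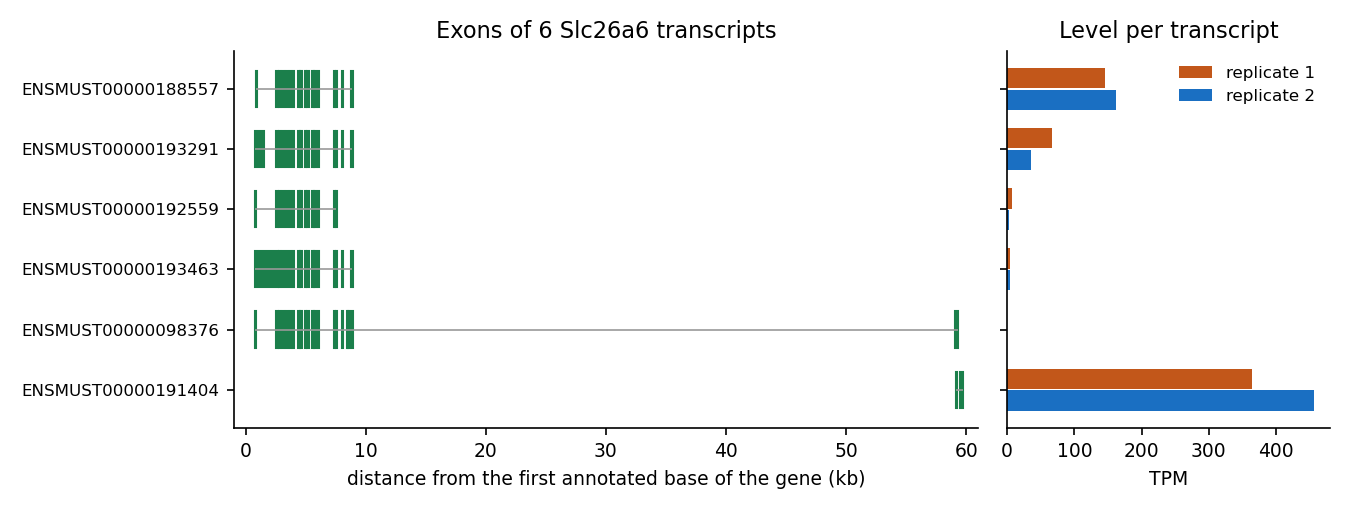
Left, exons (green boxes) of 6 annotated Slc26a6 transcripts by distance in kb from the first annotated base of the gene, with lines joining the exons of a transcript. Right, the TPM of each transcript in replicate 1 (orange) and replicate 2 (blue). The downstream piece (ENSMUST00000191404), at 364 and 457 TPM, lies apart from the exons of ENSMUST00000188557, at 146 and 161 TPM, and only ENSMUST00000098376, at 0.14 and 0.08 TPM, spans both places.

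Slc26a3 had no dominant transcript. The full-length coding transcript (ENSMUST00000001254.5), of 2908 nt and 21 exons, was at 2.73 TPM in replicate 1 (371 counts) and 4.6 TPM in replicate 2 (487 counts), or 3.67 ± 1.32 TPM (SD, n = 2). It held 16.5% of the gene's TPM in replicate 1 and 30.2% in replicate 2. ENSMUST00000167432.3, a transcript of 942 nt whose coding end is not found and whose first exon starts 47348 bases upstream, held 58.3% and 37.9%. ENSMUST00000165816.1, which the annotation classes as a retained intron, held 12.8% and 24.7%, and ENSMUST00000171616.3, classed as subject to nonsense-mediated decay, 11.8% and 4.88%. In TPM the full-length transcript was higher in replicate 2 with credibility intervals apart, unlike the gene value, whose intervals overlapped. Relative to the median gene, as described below, its log2 ratio of replicate 1 over replicate 2 was 0.08, against 0.77 for the gene.

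Transcripts of the receptor differed by a short coding exon. The longer form (ENSMUST00000032338.7), with 27 exons, held 75.0% of Gucy2c TPM in replicate 1 (16.01 TPM) and 68.8% in replicate 2 (39.0 TPM). The shorter form (ENSMUST00000078095.8), with 26 exons, held the remaining 25.0% (5.35 TPM) and 31.2% (17.7 TPM), so both forms were lower in replicate 1. The exon held only by the longer form is exon 14, of 72 bases or 24 whole codons with no stop codon in frame, on the minus strand of GRCm38 at chr6:136728331-136728402.
Gucy2c exon 14: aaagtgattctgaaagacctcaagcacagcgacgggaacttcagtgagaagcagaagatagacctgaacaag
The share of the longer form averaged 71.9% ± 4.38 (SD, n = 2).

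The other genes were represented by a single form. The leading transcript of Guca2b held 99.5% of its gene's TPM in replicate 1 and 99.6% in replicate 2. That of Prkg2 held 100% in replicate 1 and 99.1% in replicate 2. All Cftr counts in both libraries went to the coding transcript ENSMUST00000045706.7, of 6303 nt and 27 exons. Its posterior mean share was lower, 88.6% in replicate 1 and 72.1% in replicate 2, with the rest spread over 5 other annotated forms. An antisense gene, Gm15592, overlaps Cftr on the opposite strand, and processed pseudogenes on the same strand lie within Cftr, Prkg2 and Slc26a3. The libraries are stranded, but whether counting used the strand is not stated. Guca2a, Slc9a3, Slc9a3r1 and Slc12a2 have 1 transcript each in the tables. Over the 10 genes, 25 of the 36 transcripts had counts in at least 1 library.

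**Figure D3:**
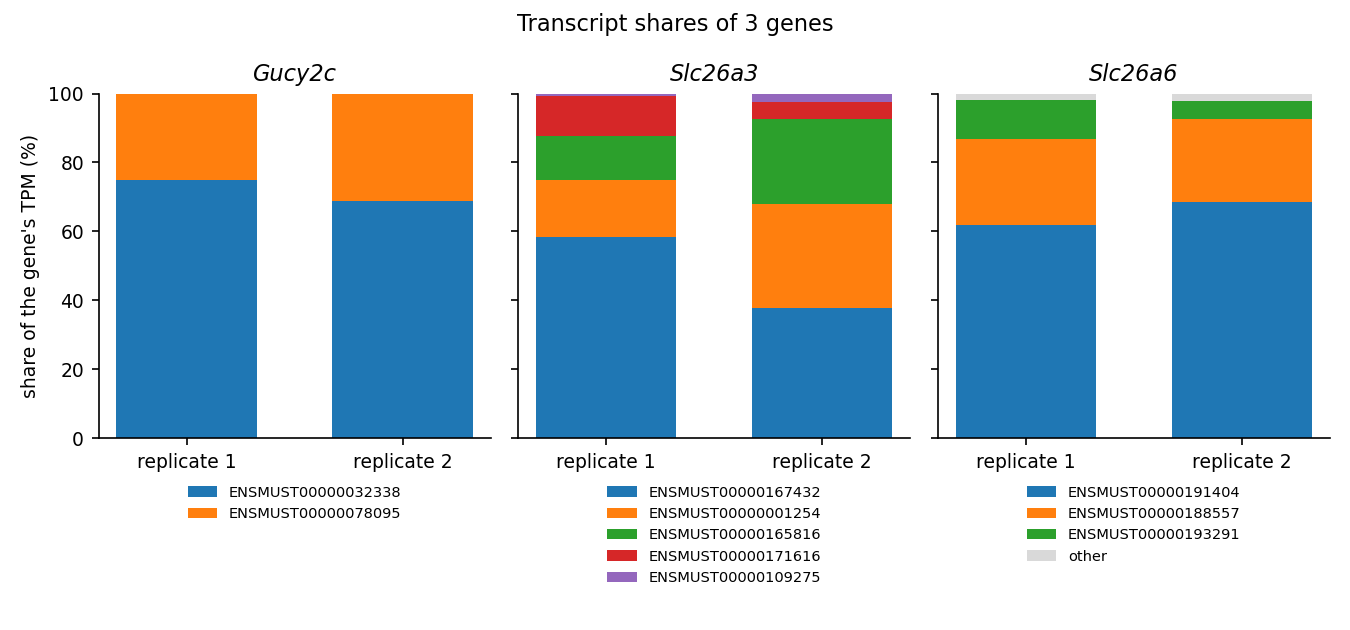
Share of the gene's TPM in percent taken by each annotated transcript of Gucy2c, Slc26a3 and Slc26a6, as stacked bars from 0 to 100% in replicate 1 and replicate 2; transcripts averaging under 1% are pooled as other. The longer form of Gucy2c holds 75.0% and 68.8%, the leading partial transcript of Slc26a3 58.3% and 37.9%, and the downstream piece of Slc26a6 61.9% and 68.4%.

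Markers of other organs differed between the libraries, so levels were also compared relative to the median gene. The 16 exocrine pancreas markers summed to 27.9% of TPM in replicate 1 and 0.180% in replicate 2, with none at 0, and the 11 stomach markers to 2.01% and 0.00526%. Library totals were close, at 45472946 and 45822403 expected counts. The log2 ratio of (TPM + 1), replicate 1 over replicate 2, was -0.66 for the median of 12260 genes with a mean TPM of at least 1, and this was subtracted. Of all these genes 6.32% then lay more than 2-fold higher in replicate 1 and 5.03% more than 2-fold higher in replicate 2.

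On this centred scale 1 of the 10 genes, Slc9a3 at 1.41, lay more than 2-fold higher in replicate 1, and 2, Guca2a at -3.84 and Guca2b at -1.65, lay more than 2-fold lower there. The remaining 7 were within 2-fold, with Slc9a3r1 at -0.96 just inside the line, Gucy2c at -0.70 and Prkg2 at -0.30. Slc26a3 at 0.77, Cftr at 0.59, Slc26a6 at 0.48 and Slc12a2 at 0.22 were above the median gene, but without centring the values of Cftr, Slc26a6 and Slc12a2 were -0.08, -0.18 and -0.45. The median of the 10 was -0.04. Of all tested genes 0.245% had a lower value than Guca2a, 1.85% a lower value than Guca2b, and 96.1% a lower value than Slc9a3. Rescaling TPM without the pancreas and stomach markers left the calls of these 3 genes as they were. Such rescaling multiplies each library by a constant that centring removes, so it could hardly change them and does not test a part of these organs. Without centring, no gene of the 10 was past 2-fold towards replicate 1, and Gucy2c and Slc9a3r1 joined the ligands towards replicate 2. Of all tested genes 3.12% were then past 2-fold towards replicate 1 and 24.9% towards replicate 2. With 1 library on each side these values carry no test.

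**Figure D4:**
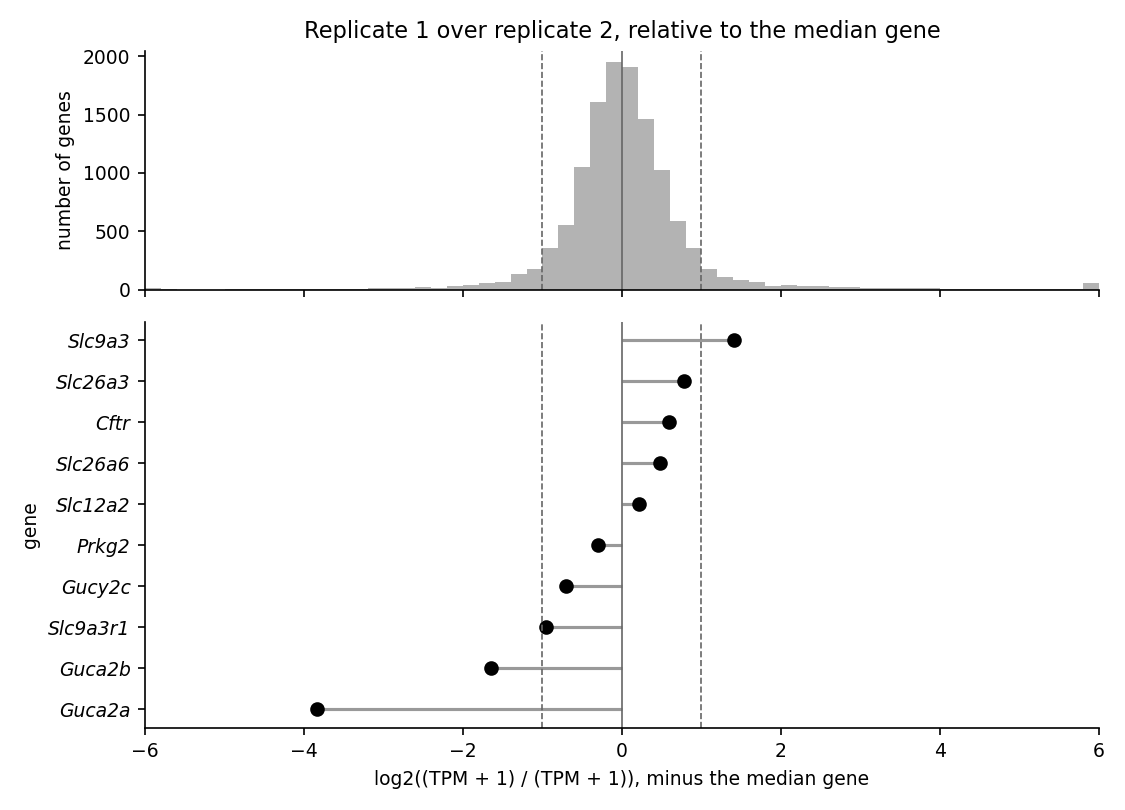
Log2 ratio of (TPM + 1), replicate 1 over replicate 2, minus the median gene, as a histogram over 12260 genes (top; values beyond 6 either way are drawn in the outermost bars) and for each of the 10 genes (bottom). Dashed lines mark 2-fold. Guca2a at -3.84 and Guca2b at -1.65 lie left of the lines and Slc9a3 at 1.41 lies right of them.

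Markers of cell types and segments moved with the libraries too. The 12 proximal small intestine markers had a median of 2.00 on the centred scale but were split. Of these, 7 were past 2-fold towards replicate 1, 4 were within 2-fold, and 1, Lct at -1.93, was past 2-fold towards replicate 2. Their summed TPM was nearly equal, at 1444 (replicate 1) and 1446 (replicate 2). The 10 distal markers, of which 8 were tested, had a median of -1.64, with 6 past 2-fold towards replicate 2 and 2 within 2-fold. The 14 enterocyte markers had a median of -0.98, and 7 of them were past 2-fold towards replicate 2 and 1 towards replicate 1. The 8 goblet cell markers had a median of -0.32 and the 7 Paneth cell markers -1.35. The colon-defining genes Car1 and Hoxd12 were listed at 0 in both libraries, and Hoxb13 at 0.20 TPM in replicate 1, against 0.09 TPM in replicate 2. The 8 pancreatic duct markers, of which 7 were tested, had a median of 0.92, with 3 past 2-fold towards replicate 1 and 4 within 2-fold. Among these 3 is Tff2, which is also counted with the stomach markers. Sox9, also expressed in crypts, was at 20.0 TPM in replicate 1, against 20.9 TPM in replicate 2, or 0.61 on the centred scale. The part of these cells and organs in the values of the 10 genes was not tested.

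Genes around the pathway were taken from 11 lists of signalling and transport genes. Of 161 listed genes 158 were matched, 106 reached 1 TPM in each library, and 110 were tested on the centred scale. Of these 10 (9.09%) lay more than 2-fold higher in replicate 1 and 13 (11.8%) more than 2-fold higher in replicate 2, against 6.32% and 5.03% of all tested genes. The median of the 110 was -0.02. A tested gene under 1 TPM in 1 library met the minimum mean through the other library, which fixed the direction of its uncentred ratio. Slc9a4, Slc4a7 and Kcnj13 are such genes among those past 2-fold.

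Among enzymes that remove cyclic GMP, Pde9a, a phosphodiesterase specific for cyclic GMP, was by far the most abundant, at 81.4 TPM in replicate 1, against 274 TPM in replicate 2, a centred ratio of -1.08. Pde5a, the target of sildenafil, was at 1.81 and 4.80 TPM in replicates 1 and 2, and Abcc5, a cyclic nucleotide exporter, at 6.79 and 8.45 TPM. Of the rest the highest was Pde1b, at 1.74 and 3.29 TPM, and 4 of the 12 matched were under 1 TPM in both libraries (Pde1c, Pde6c, Pde10a and Pde11a). The highest of the other guanylate cyclases were the natriuretic peptide receptors Npr1 and Npr2, at 4.03 and 4.78 TPM and at 4.58 and 5.17 TPM in replicates 1 and 2. Prkg1, the soluble cyclic GMP kinase of smooth muscle, was at 0.42 TPM in replicate 1, against 0.21 TPM in replicate 2, below Prkg2 in each library. Prkaca, a catalytic subunit of the cyclic AMP kinase, which also phosphorylates CFTR, was at 17.9 and 37.0 TPM. Vasp, an actin regulator that cyclic nucleotide kinases phosphorylate, was at 122 and 371 TPM.

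Receptors that raise cyclic AMP were led by Vipr1, the receptor for vasoactive intestinal peptide, at 32.1 TPM in replicate 1, against 106 TPM in replicate 2 (-1.03 on the centred scale). Ptger4, a prostaglandin receptor, was at 30.3 and 70.1 TPM, and the cyclase Adcy6 at 31.7 and 49.8 TPM. Among scaffolds and regulators, 3 of the 18 tested were past 2-fold, all towards replicate 2. These were Pdzk1, the NHERF3 scaffold, at 9.17 and 47.7 TPM, Ezr, the ezrin to which NHERF1 binds, at 76.2 and 302 TPM, and Myo1a, a brush border myosin, at 91.7 and 441 TPM. The NHE3 cofactor Chp2 was at 77.8 and 161 TPM and stayed within 2-fold on the centred scale (-0.38).

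Other sodium entry genes lay on either side of the median gene. Slc9a2, the second apical sodium-hydrogen exchanger NHE2, was at 76.3 TPM in replicate 1, against 191 TPM in replicate 2, or -0.65 on the centred scale. Slc9a3 was thus close to Slc9a2 in replicate 1 and below it in replicate 2. The sodium-glucose cotransporter Slc5a1 was at 227 and 512 TPM, or -0.51. Of the epithelial sodium channel subunits, Scnn1a, named after its values were seen, was at 9.43 and 9.80 TPM in replicates 1 and 2 (0.61 on the centred scale). Scnn1b was at 0.68 and 0.08 TPM and Scnn1g at 0.21 and 0 TPM in replicates 1 and 2. No gene of this list was past 2-fold towards replicate 2 and 1 of the 7 tested was towards replicate 1. That gene, Slc9a4, named after its values were seen, was at 3.03 TPM in replicate 1 (282 counts) and was listed at 0 in replicate 2. It met the minimum mean of 1 TPM through replicate 1 alone, so its direction followed from that filter.

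Among chloride and bicarbonate transporters the calcium-activated chloride channel regulators stood out. Clca4a was at 7.20 TPM in replicate 1, against 143 TPM in replicate 2 (-3.47), and Clca4b at 28.3 and 163 TPM (-1.82). These are related genes, and their expected counts in replicate 1 were not whole numbers, at 1013.88 and 3978.12, so the value of each is less certain there. Ano1, the calcium-activated chloride channel also found in pacemaker cells, was at 13.9 and 6.90 TPM (1.58). The chloride channel Clcn2 was at 81.8 and 179 TPM and the basolateral anion exchanger Slc4a2 at 39.8 and 71.4 TPM, and both were within 2-fold. Carbonic anhydrases, which supply bicarbonate, included Car2 at 577 TPM in replicate 1, against 19.2 TPM in replicate 2 (5.50) and Car4, an apical membrane form, at 11.2 and 38.2 TPM (-1.03). Of 8 tested carbonic anhydrases 4 were past 2-fold towards replicate 1 and 1 towards replicate 2.

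On the blood side, Atp1b1, a beta subunit of the sodium pump, was at 164 and 302 TPM in replicates 1 and 2, within 2-fold on the centred scale. Potassium channels that recycle the charge of secretion included Kcnn4 at 41.9 and 61.2 TPM and Kcnk5 at 10.6 and 38.0 TPM (-1.08). Slc12a1, the kidney relative of Slc12a2, had 1 count in replicate 1 and 0 in replicate 2. All 8 tested genes of the WNK pathway, the kinases that regulate Slc12a2, were within 2-fold, led by Cab39 at 29.5 and 54.9 TPM and Wnk1 at 17.01 and 28.1 TPM.

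**Figure D5:**
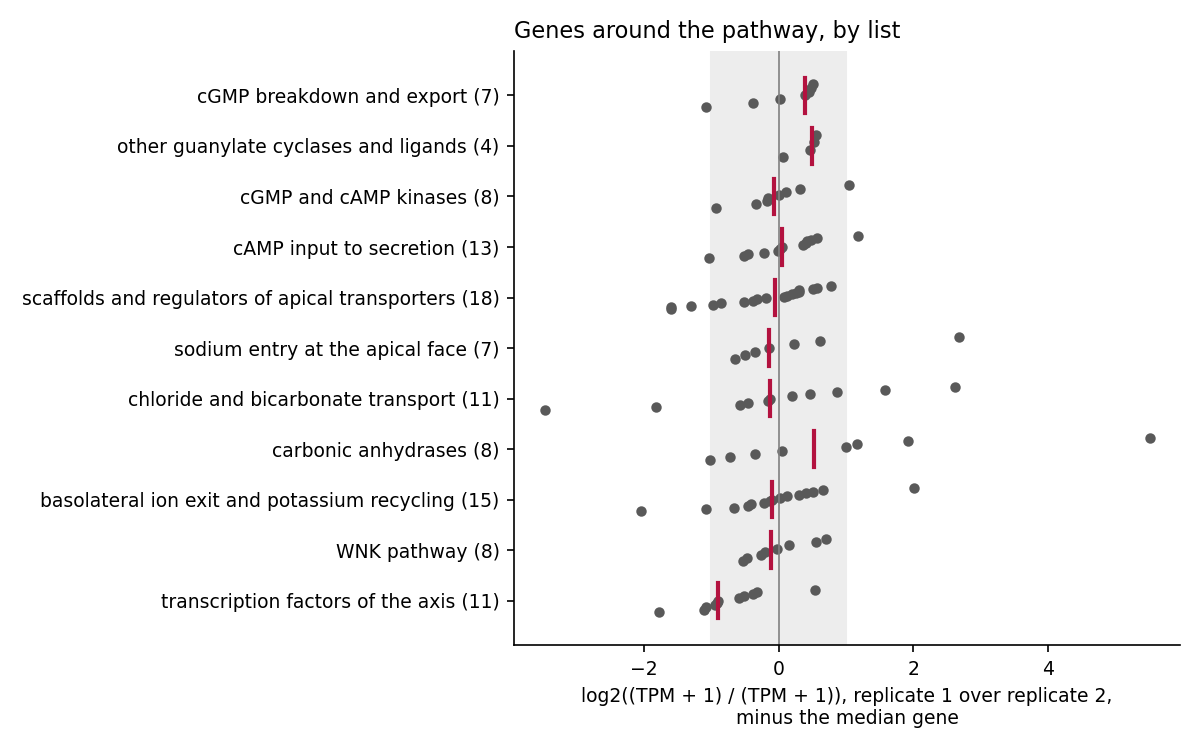
Log2 ratio of (TPM + 1), replicate 1 over replicate 2, minus the median gene, for tested genes of the 11 lists (grey points; number tested in brackets) with the median of each list as a red bar. The shaded band marks 2-fold. All 11 medians lie inside the band, the transcription factors lie lowest at -0.90, and the point furthest right is Car2 at 5.50.

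Transcription factors of the gut epithelium had the lowest median of the 11 lists. Of 11 tested, 3 were past 2-fold towards replicate 2, which were Cdx1 at 53.1 and 292 TPM, Hnf4g at 12.4 and 45.03 TPM and Klf4 at 142 and 479 TPM in replicates 1 and 2. The median was -0.90. Within 2-fold were Hnf4a, at 143 and 325 TPM, and Cdx2, at 93.1 and 282 TPM. Promoter sequences from RefSeq on GRCm38.p6 (300 bases each) matched 7 of the 10 genes. They were searched on both strands for the HNF1 core, spelled GTTAAT, and for the full HNF1 palindrome that contains it. The CDX2 letters were TTTATG, the GATA letters were AGATAA and the HNF4 letters were CAAAGTCCA. The cyclic AMP response element was spelled TGACGTCA, and its shorter form, which the longer contains, was TGACG. The TATA letters, TATAAA, were searched on the strand of the gene. The ligand promoters are shown, upstream of the annotated starts, since the 2 genes had the largest differences towards replicate 2. Capitals mark matches, which are the GATA letters in reverse complement for Guca2a (chr4:119637482-119637703, plus strand) and the HNF1 core for Guca2b (chr4:119658955-119659195, minus strand).
Guca2a promoter: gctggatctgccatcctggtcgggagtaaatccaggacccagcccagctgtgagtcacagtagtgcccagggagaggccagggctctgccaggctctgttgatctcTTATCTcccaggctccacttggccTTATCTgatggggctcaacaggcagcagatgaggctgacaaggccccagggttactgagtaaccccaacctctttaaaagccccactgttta
Guca2b promoter: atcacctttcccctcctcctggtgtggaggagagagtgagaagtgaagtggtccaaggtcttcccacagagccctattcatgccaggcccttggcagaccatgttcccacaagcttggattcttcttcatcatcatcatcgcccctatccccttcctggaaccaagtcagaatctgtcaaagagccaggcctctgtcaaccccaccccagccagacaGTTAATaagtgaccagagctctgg
The GATA letters begin at positions -144 and -120 of the RefSeq start of Guca2a and occur in 11.2% of 32851 promoters. The HNF1 core letters begin at -33 of the start of Guca2b, and also occur at -94 and -84 of Slc26a3, against 7.10% of all promoters. The TATA letters lie at -30 of Slc26a3, a motif held by 8.32% of promoters. No other motif of the set was found in the 7 promoters, which says only that these letters are not in those windows.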

How the data were processed

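For each library the authors deposited values per gene and per transcript, from stranded paired-end sequencing of rRNA-depleted poly(A)+ RNA with spike-ins, per the labels. Expected counts (estimated fragments per feature), TPM, FPKM, posterior mean TPM, credibility interval bounds in TPM (level not stated), lengths in nt and the percent of a gene's TPM per transcript are values as deposited. The assembly mm10 and annotation M4 are per the labels' text beside the tables. No aligner or counting tool is named there (not given in the sources used here). The columns are those that RSEM writes. The credibility bounds, a signal deposited by the authors, cover counting and assignment error only.

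Symbols, exons and coordinates came from GENCODE M21 (GRCm38) by stable identifier, which matched 42462 of 43346 genes (98.0%). All 36 transcripts matched, 35 with the same length. A ratio is the log2 of (TPM + 1) in replicate 1 divided by (TPM + 1) in replicate 2, less the median over genes with mean TPM of at least 1. They understate differences of low genes. Past 2-fold means beyond 1 log2 unit. The ratio step was checked on simulated data, in which both libraries were drawn from the same averaged profile with known folds added. That check held no shift in organ content like the one between these libraries, so it does not cover centring under such a shift. No test between groups was possible, and p-values are not given.

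The members and lists were chosen with earlier results of these data known. Members are all named, as are the 4 highest genes of a list, those past 2-fold at a mean TPM of at least 5, and, where at most 5 genes of a list stay under 1 TPM in each library, those genes. A gene that this rule names is not reported here. Others are said to be chosen after their values were seen or serve as markers. Planned protein features were not used here. A count of 0 allows up to 3 counts (6.60e-06% and 6.55e-06% of the totals). Tools were Python 3.11.15, numpy 2.4.6, pandas 2.3.3, BLAST+ 2.17.0, and, for scaling alternatives on counts rounded to whole numbers, edgeR 4.0.16 and DESeq2 1.42.0 in R 4.3.3. Alternatives were other pseudocounts, minimums, thresholds, scales and centrings, FPKM, posterior means, leaving out a replicate and other transcript sums for Slc26a6 and Slc26a3.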

Additional observations from a re-analysis of the deposited data

How the results depend on the processing

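No paired analysis was possible because the study has 1 group. The 3 genes past 2-fold kept their sign under every scaling, pseudocount and centring run, with Guca2a between -4.50 and -3.75, Guca2b between -2.32 and -1.54, and Slc9a3 between 0.75 and 1.55. Without centring the counts were 0 towards replicate 1 and 4 towards replicate 2 (Gucy2c and Slc9a3r1 added), against 1 and 2. The shares of all tested genes were then 3.12% and 24.9%. Centred on the median spike-in RNA, 4 genes were past 2-fold towards replicate 2, against 11.4% of all tested genes. Slc9a3 alone was past 2-fold towards replicate 1 there, against 4.18%. At a threshold of 1.5-fold the counts were 3 (Cftr, Slc9a3 and Slc26a3) and 4, against 14.6% and 12.9% of all tested genes. At 3-fold they were 0 and 2, against 3.35% and 2.03%. These shifts follow from the median gene's offset of -0.66 and from the threshold itself. With a pseudocount of 5 instead of 1, Slc9a3r1 at -1.18 also passed 2-fold. That gave 3 genes towards replicate 2 and 1 towards replicate 1, against 4.52% and 3.21% of all tested genes. Without the downstream piece of Slc26a6, an alternative chosen after seeing the data, the mean log2 ratio of Slc9a3 over Slc26a6 was -1.86 instead of -3.39, and that of Slc26a6 over Slc26a3 was 3.78 instead of 5.31. The counts past 2-fold need both libraries and could not be recomputed with a replicate left out. Without replicate 1 the log2 ratio of Guca2b over Guca2a was 0.64, and without replicate 2 it was 2.85. Depth limits Cftr most, at 436 and 370 counts.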

Other observations

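Some transport genes outside the rule for named genes were chosen after their values were seen. Slc4a7, a sodium-bicarbonate cotransporter, was at 6.49 TPM in replicate 1 (2362 counts) and 0.94 TPM in replicate 2 (265 counts). Slc26a9, a chloride transporter known from the stomach surface, was at 1.46 TPM in replicate 1, against 0.01 TPM in replicate 2, beside stomach markers that summed to 20134 TPM and 52.6 TPM. Kcnj13, a potassium channel, was instead higher in replicate 2, at 0.08 TPM in replicate 1 (4 counts) and 6.08 TPM in replicate 2 (252 counts). Their relation to the marker lists was not tested. The bicarbonate cotransporter Slc4a4, which pancreatic ducts also express, was at 8.85 TPM in replicate 1, against 12.6 TPM in replicate 2, within 2-fold on the centred scale.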
